A study of Mus musculus with 9 samples.

Results

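The enzymes that turn arachidonic acid into leukotrienes, prostaglandins and thromboxane were followed at the level of their messenger RNA. Members were chosen by gene, as all array probes whose accession belongs to Alox5, Alox5ap, Alox15, Ptgs1, Ptgs2, Hpgds, Ltc4s, Lta4h or Tbxas1. This gave 13 probes for 9 genes, of 41174 distinct probes and 16535 named genes on the array, and all 13 passed the filter on dim probes. A gene with several probes is described by the one with the highest mean level, with the others beside it.

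The RNA came from FDCPmix, a mouse line of multipotent blood progenitors that self-renews in culture and can mature along several lineages. The cells received lentivirus encoding a short hairpin RNA against Gata2 (Gata2 KD) or against Pu.1 (Pu.1 KD), or the empty virus (EV), were kept in self-renewal conditions, and were sorted alive for the GFP of the virus 5 days later. Spi1 is the gene symbol of Pu.1. There were 3 arrays in each group, of cells transduced as triplicate samples. Whether these were grown as separate cultures beforehand is not stated, so p-values measure only the spread between these samples, which may be technical. All 3 groups share 1 cell line, the lentivirus and the sort. The control carries no hairpin of its own, and the labels do not give how many hairpins were used against each target.

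Eicosanoids are short-lived lipid signals of inflammation. Arachidonic acid freed from membranes is oxidised by 5-lipoxygenase (Alox5), which needs the membrane protein FLAP (Alox5ap), to leukotriene A4; Lta4h hydrolyses this to leukotriene B4, and Ltc4s conjugates it with glutathione to leukotriene C4, the first cysteinyl leukotriene. The cyclooxygenases Ptgs1 and Ptgs2 instead make prostaglandin H2, from which Hpgds makes prostaglandin D2 and Tbxas1 makes thromboxane A2. Mast cells, basophils, eosinophils, neutrophils and macrophages are the blood cells best known for these products, each with its own mixture.

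Levels are log2 intensities after subtraction of each array's own 75th percentile, so that a level of 0 is that percentile itself. Since a probe's brightness also depends on its sequence, levels are compared between groups and never between genes. Differences are log2 differences of group means with the standard error (SE) of limma's fit, and a probe was called when its p, adjusted over the 36585 probes tested, was under 0.05. The 9 arrays lay on 3 slides with 1 array of each group on each, and the difference within a slide is given where it matters. Between 80.4% and 89.6% of spots read well above background. The lowest mean correlation with the remaining arrays was 0.960, for EV replicate 3. Gata2 was lower by 1.61 on the log2 scale in Gata2 KD (SE 0.23, adjusted p = 0.00414), and Spi1 was lower by 1.73 in Pu.1 KD (SE 0.16, adjusted p = 0.00178). All 8 markers of multipotent progenitors examined, Kit and Cd34 among them, were well above background on every array. Their levels were not the same in the groups. In Gata2 KD 2 of the 8 were called higher and 3 lower, beside 5.2% of all probes, and Gata2 itself is on the list. In Pu.1 KD 1 was called higher and 1 lower, beside 2.7% of all probes. The mean of Cd34 was 3.07 in EV, 5.24 in Gata2 KD and 2.16 in Pu.1 KD. That of Kit was lowest in EV (-0.25), with 0.50 in Gata2 KD and 1.16 in Pu.1 KD.

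In Gata2 KD, enzymes of the leukotriene arm differed from EV in opposite directions. Alox5 fell, while Alox5ap and Ltc4s rose, and no cyclooxygenase or enzyme downstream of one passed the threshold. In Pu.1 KD, Alox5 and Alox5ap were lower and nothing passed the threshold upward. The Alox5ap call in Gata2 KD was lost under 10 of 20 alternative settings. The Pu.1 KD calls were lost under 12 (Alox5) and 13 (Alox5ap). Of the 9 genes, 3 were called in Gata2 KD against EV, where 5.2% of all tested probes were called, and 2 in Pu.1 KD, where 2.7% were. By direction, 2 rose and 1 fell in Gata2 KD, beside 2.96% of all probes called higher and 2.24% lower. In Pu.1 KD none was higher and 2 were lower, beside 1.27% and 1.42%. Between the knockdowns 3 were called, beside 9.63% of all probes, with 2 higher (4.86% of probes) and 1 lower (4.77%) in Gata2 KD, and the moderated F test over the 3 groups called the same 3 genes, Alox5, Alox5ap and Ltc4s, beside 9.01%.

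**Figure D1:**
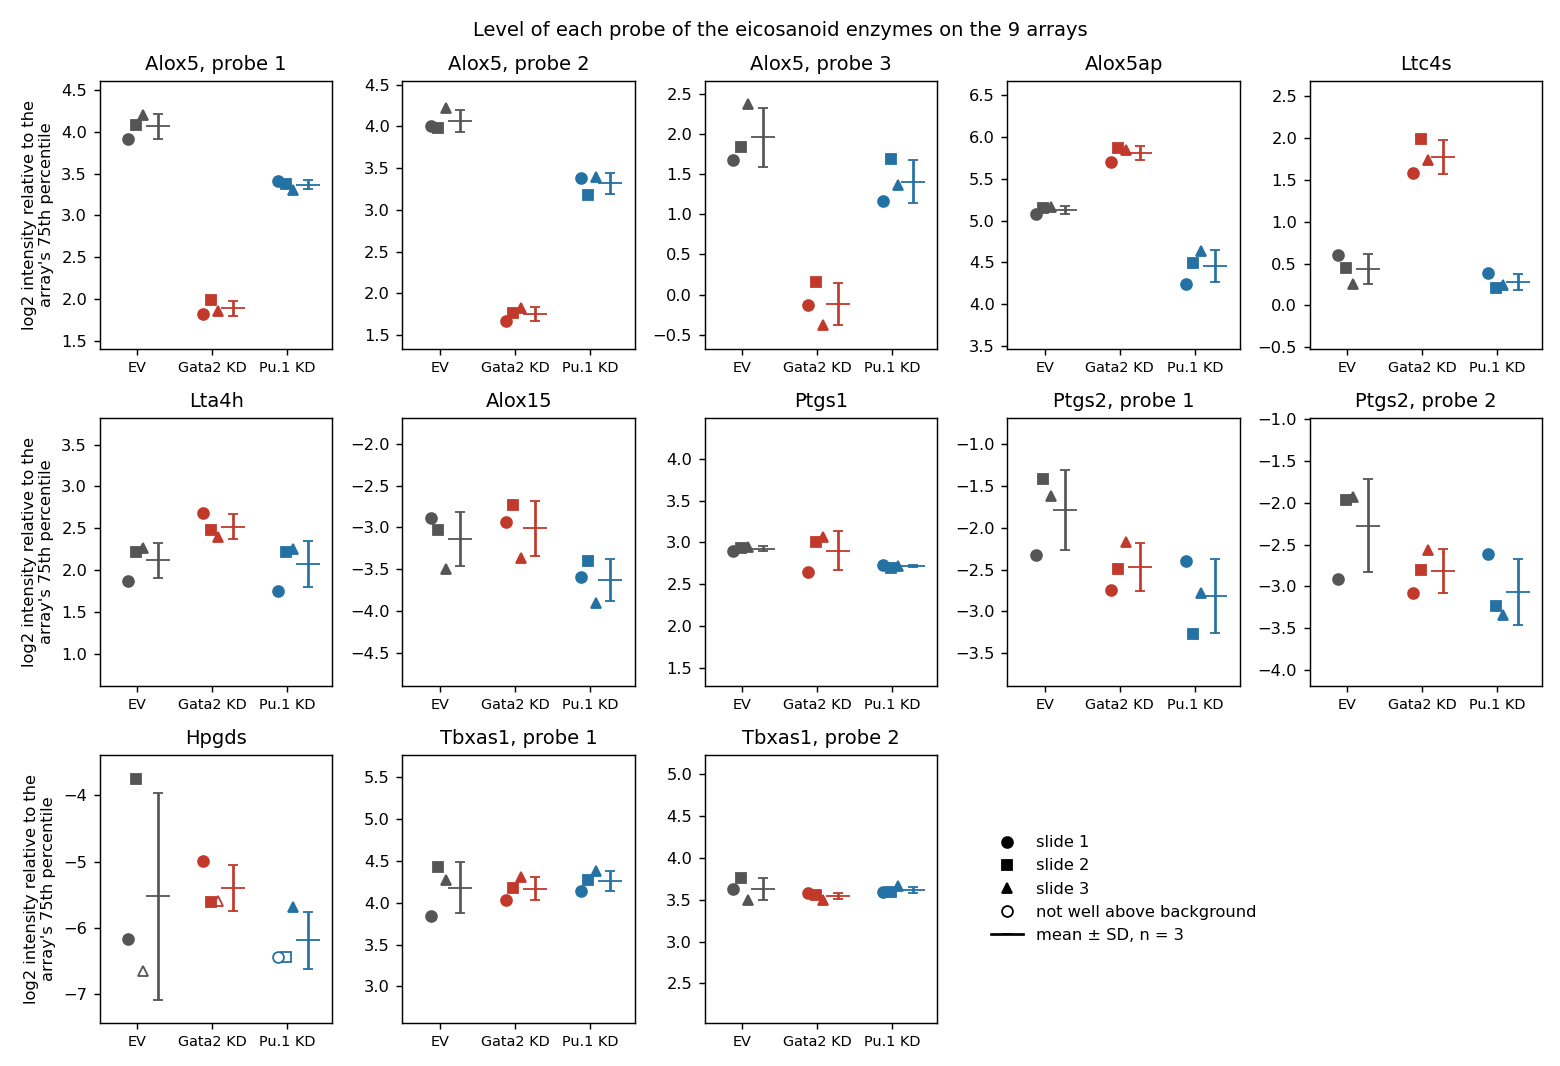
Level of each of the 13 probes on the 9 arrays, as log2 intensity relative to the array's 75th percentile; each panel has its own axis, shapes mark the slide, open symbols mark spots not well above background, and bars are the mean ± SD of 3 arrays. The 3 Alox5 probes show the same order of the groups, Alox5ap separates them in another order, and Ltc4s stands higher in Gata2 KD only.

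Alox5 gave the largest change of the members that passed the threshold. Its main probe (A_52_P214126) read 3.91, 4.20 and 4.09 on the EV arrays, 1.86, 1.99 and 1.82 in Gata2 KD and 3.38, 3.31 and 3.41 in Pu.1 KD. The groups did not overlap, with EV highest, Pu.1 KD between and Gata2 KD lowest. The fall in Gata2 KD was 2.18 on the log2 scale (95% confidence interval -2.48 to -1.88), 4.53-fold, with an adjusted p of 4.49e-05, and within the slides it ranged from -2.35 to -2.09. In Pu.1 KD the difference was -0.70 (SE 0.13, 1.63-fold lower, adjusted p = 0.0305). The difference between the knockdowns, tested directly, was -1.48 (SE 0.13, adjusted p = 0.00019). These 3 differences had the same sign on every slide.

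The other Alox5 probes carry the same accession and gave the same order of group means. The second probe read 3.998, 4.22 and 3.98 in EV, 1.83, 1.77 and 1.67 in Gata2 KD and 3.18, 3.40 and 3.38 in Pu.1 KD. Its differences from EV were -2.31 in Gata2 KD (adjusted p = 3.98e-05) and -0.75 in Pu.1 KD (adjusted p = 0.0266). The third probe read 1.67, 2.37 and 1.83 in EV, -0.37, 0.16 and -0.14 in Gata2 KD and 1.69, 1.36 and 1.16 in Pu.1 KD. It passed the threshold in Gata2 KD, with -2.07 (adjusted p = 0.00139), and in Pu.1 KD it gave -0.55 with overlapping groups and an adjusted p of 0.392. The Gata2 KD change of the main probe stayed past the threshold under all 20 alternative settings. The Pu.1 KD call was lost under 12 of 20, including each of the 9 arrays left out in turn (adjusted p from 0.0506 to 0.128), scaling to the array median (adjusted p = 0.273) and the replicate number as a block (adjusted p = 0.137).

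Alox5ap, which holds arachidonic acid for 5-lipoxygenase at the nuclear membrane, moved in opposite directions in the knockdowns. Its probe (A_51_P235687) read 5.08, 5.16 and 5.15 in EV, 5.85, 5.87 and 5.71 in Gata2 KD and 4.50, 4.63 and 4.24 in Pu.1 KD. The Gata2 KD arrays all lay above EV and the Pu.1 KD arrays all below it, with no overlap. The rise in Gata2 KD was 0.68 (SE 0.14, 1.601-fold, adjusted p = 0.0285) and spanned only 0.63 to 0.72 within the slides. The difference in Pu.1 KD was -0.67 (SE 0.14, 1.59-fold lower, adjusted p = 0.0486), from -0.83 to -0.53 within the slides. Both calls lie near the threshold. The first was lost under 10 of 20 alternatives, among them leaving out any 1 EV or Gata2 KD array or Pu.1 KD replicate 1 (adjusted p from 0.0609 to 0.137), median scaling (0.188) and the replicate block (0.0932). The second was lost under 13 of 20, among them leaving out any 1 of the 9 arrays (adjusted p from 0.0768 to 0.164), median scaling (0.39) and the replicate block (0.154).

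The direct difference of Alox5ap between the knockdowns was larger, 1.35 higher in Gata2 KD (95% confidence interval 1.03 to 1.67, 2.55-fold, adjusted p = 0.000465), and passed the threshold under all 20 alternatives. Of all tested probes, 0.487% were called higher in Gata2 KD and lower in Pu.1 KD, as Alox5ap was, and 0.172% were called lower in both, as Alox5 was. Both comparisons use the same EV arrays. Alox5 and Alox5ap differed in sign in Gata2 KD and shared a sign in Pu.1 KD.

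Ltc4s, the synthase of leukotriene C4, rose in Gata2 KD. Its probe (A_51_P354792) read 0.60, 0.25 and 0.45 in EV, 1.74, 1.99 and 1.59 in Gata2 KD and 0.21, 0.24 and 0.39 in Pu.1 KD. All Gata2 KD arrays stood clear of the other groups, and EV and Pu.1 KD overlapped. The rise was 1.34 (95% confidence interval 0.97 to 1.70, 2.53-fold, adjusted p = 0.00171), with 0.98 to 1.54 within the slides, and it stayed past the threshold under all 20 alternatives. In Pu.1 KD the difference was -0.16 (95% confidence interval -0.52 to 0.21, adjusted p = 0.901). Between the knockdowns it was 1.49 (SE 0.16, 2.82-fold higher in Gata2 KD, adjusted p = 0.000519).

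Lta4h competes with Ltc4s for leukotriene A4. Its probe (A_51_P101955) read 1.87, 2.26 and 2.21 in EV, 2.39, 2.48 and 2.68 in Gata2 KD and 2.21, 2.25 and 1.75 in Pu.1 KD. The Gata2 KD arrays were again all above the others, by a smaller margin. The difference from EV was 0.40 (95% confidence interval -0.02 to 0.83, adjusted p = 0.384) in Gata2 KD, with 0.13 to 0.81 within the slides, and -0.04 (-0.47 to 0.39, adjusted p = 1) in Pu.1 KD. Neither passed the threshold.

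Promoter sequence is shown for Alox5 and Ltc4s, the members with the largest fall and the largest rise in Gata2 KD, as the 250 bases before the start of each gene, 5′ to 3′ on the gene's strand. The letters come from RefSeq on GRCm38.p6, a later build than the mm8 to which the array was designed. Alox5 lies on the minus strand at chr6:116461179-116461428 and Ltc4s on the minus strand at chr11:50238533-50238782. Capitals mark a match to the ETS-type motif GGAAGTG, found in many PU.1 sites, of which the Alox5 window holds none.
Alox5: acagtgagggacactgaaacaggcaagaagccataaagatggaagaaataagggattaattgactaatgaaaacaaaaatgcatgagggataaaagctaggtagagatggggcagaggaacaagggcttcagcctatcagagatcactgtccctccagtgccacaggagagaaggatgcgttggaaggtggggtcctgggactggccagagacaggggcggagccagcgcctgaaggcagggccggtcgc
Ltc4s: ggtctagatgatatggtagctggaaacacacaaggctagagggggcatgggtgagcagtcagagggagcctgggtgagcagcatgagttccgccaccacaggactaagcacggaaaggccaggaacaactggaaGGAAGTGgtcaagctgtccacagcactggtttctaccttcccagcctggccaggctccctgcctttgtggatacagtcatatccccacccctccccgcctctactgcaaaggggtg

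Of the 9 members, 7 had an entry in the promoter table, and Alox5ap and Alox15 did not. Motifs were searched on both strands. AGATAA, a motif of GATA factors, was in 9.99% of all 32851 promoter windows of this length. The longer form AGATAAG, which contains it, was in 2.74%. The GATA variant TGATAA was in 7.94%. None of the 7 members' windows held any of these. The paper also uses the wider consensus WGATAR (W is A or T, R is A or G). Its forms AGATAG and TGATAG were not searched for. The Alox5 window printed above holds ctatca, which reads TGATAG on the other strand. The share of all windows with TGATAG or AGATAG was not counted. GGAAGTG was found in Ltc4s, from 116 to 110 bases before the start, and in Hpgds, from 47 to 41 bases before it, beside 8.55% of all windows. A match describes the letters of this window and not the binding of a factor.

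Alox15, the mouse 12/15-lipoxygenase, works on the same substrate as Alox5. Its probe (A_51_P252565) read -2.89, -3.50 and -3.04 in EV, -3.37, -2.73 and -2.94 in Gata2 KD and -3.41, -3.90 and -3.59 in Pu.1 KD. EV and Gata2 KD lay over each other, and the Pu.1 KD arrays were low, overlapping EV and lying just below every Gata2 KD array. The differences from EV were 0.13 in Gata2 KD (95% confidence interval -0.41 to 0.67, adjusted p = 0.957) and -0.49 in Pu.1 KD (-1.03 to 0.05, adjusted p = 0.473). Between the knockdowns it was 0.62 (SE 0.24, adjusted p = 0.185), with 0.53 to 0.67 within the slides, and with the slide as a block this difference passed the threshold (adjusted p = 0.0136).

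**Figure D2:**
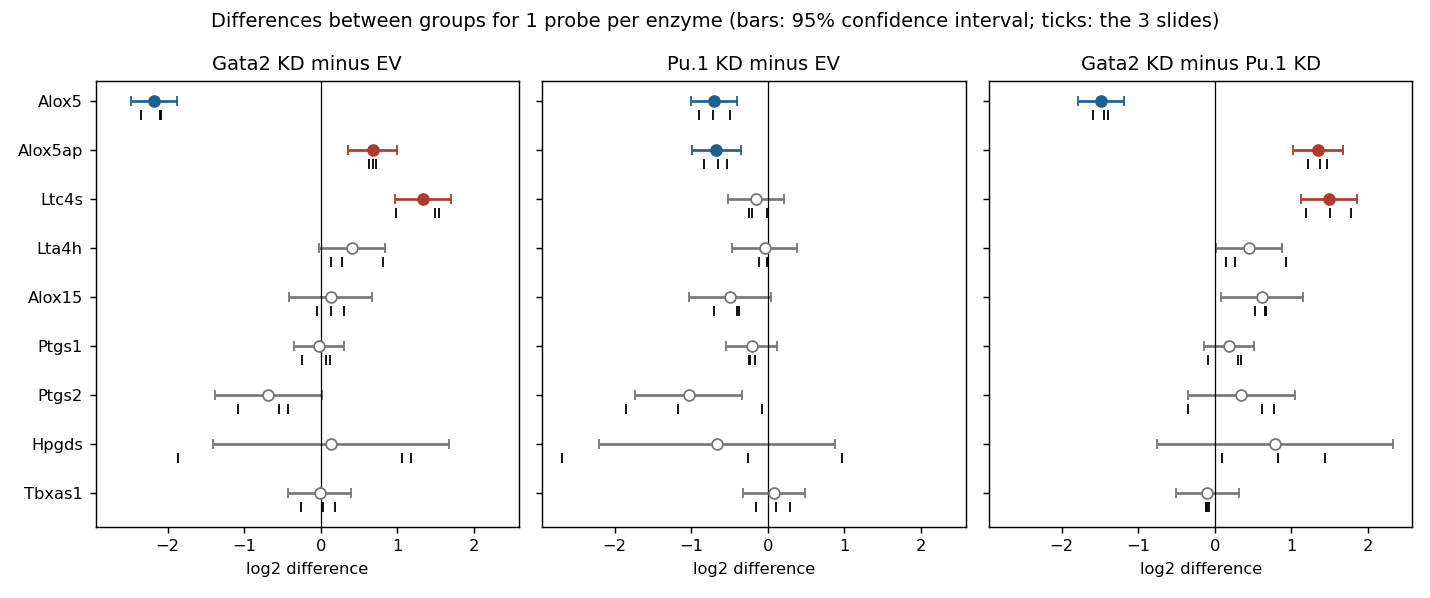
Log2 difference between groups for 1 probe of each enzyme, with 95% confidence intervals as bars and the differences within the 3 slides as ticks; filled points passed an adjusted p of 0.05. Alox5 lies left of 0 in all 3 panels, Alox5ap changes side between the knockdowns, and no point of Ptgs1, Ptgs2, Hpgds or Tbxas1 is filled.

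The cyclooxygenase arm did not pass the threshold in any comparison. Ptgs1, the constitutive cyclooxygenase, read 2.89, 2.95 and 2.94 in EV (probe A_51_P279100), 3.07, 3.001 and 2.64 in Gata2 KD and 2.70, 2.72 and 2.73 in Pu.1 KD. The EV arrays lay within a narrow band, the Pu.1 KD arrays all lay below it and the Gata2 KD arrays spanned it. The difference was -0.02 in Gata2 KD (95% confidence interval -0.35 to 0.31, adjusted p = 0.991) and -0.21 in Pu.1 KD (-0.54 to 0.12, adjusted p = 0.73), and the latter kept its sign on all slides, from -0.24 to -0.17.

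Ptgs2, the inducible cyclooxygenase, was lower on average in both knockdowns with a wide spread. Its main probe (A_51_P254855) read -2.32, -1.62 and -1.42 in EV, -2.17, -2.50 and -2.75 in Gata2 KD and -3.27, -2.79 and -2.40 in Pu.1 KD. EV replicate 1 was low and within the Gata2 KD range, and the highest Pu.1 KD array lay just below it. The differences from EV were -0.68 in Gata2 KD (95% confidence interval -1.38 to 0.02, adjusted p = 0.361) and -1.03 in Pu.1 KD (-1.73 to -0.33, adjusted p = 0.157). Within the slides the Pu.1 KD difference ran from -1.85 to -0.07, so that the slide holding EV replicate 1 showed almost none.

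The second Ptgs2 probe read -2.91, -1.93 and -1.97 in EV, -2.56, -2.81 and -3.08 in Gata2 KD and -3.24, -3.34 and -2.61 in Pu.1 KD. Its differences from EV were -0.55 (adjusted p = 0.543) and -0.79 (adjusted p = 0.329), in the same direction as the main probe, and in Pu.1 KD 1 slide gave a difference above 0 (0.30). EV replicate 1 was the lowest EV array with both probes.

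Hpgds, the hematopoietic prostaglandin D synthase of mast cells, was near background. Its probe (A_52_P536796) was well above background on 2 EV, 2 Gata2 KD and 1 Pu.1 KD array. It read -6.17, -6.65 and -3.74 in EV, -5.59, -5.60 and -4.99 in Gata2 KD and -6.44, -5.68 and -6.43 in Pu.1 KD. EV replicate 3 stood far above the other EV arrays, and the groups overlapped in both comparisons with EV. The differences were 0.13 (95% confidence interval -1.41 to 1.67, adjusted p = 0.99) in Gata2 KD and -0.66 (-2.21 to 0.88, adjusted p = 0.9) in Pu.1 KD. Without EV replicate 3, the Pu.1 KD difference was 0.23 and that in Gata2 KD was 1.02, and neither passed the threshold.

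Tbxas1, thromboxane synthase, differed least among the groups. Its main probe (A_51_P448664) read 3.84, 4.27 and 4.43 in EV, 4.31, 4.17 and 4.03 in Gata2 KD and 4.28, 4.37 and 4.14 in Pu.1 KD. The groups overlapped throughout. The differences from EV were -0.01 in Gata2 KD (95% confidence interval -0.42 to 0.40) and 0.08 in Pu.1 KD (-0.33 to 0.49), with adjusted p of 0.995 and 0.993. The second probe, from 3.49 to 3.76 over all arrays, gave -0.09 and -0.01 (adjusted p = 0.93 and 1).

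Counted by overlap, 3 members were higher and 1 was lower on every Gata2 KD array than on any EV array, where 18.6% of all tested probes did not overlap in either direction. In Pu.1 KD 4 members (Alox5, Alox5ap, Ptgs1 and Ptgs2) were lower on every array, beside 17.2% of all probes in either direction. Between the knockdowns 6 of 9 did not overlap, beside 25.7%. The median difference of the 9 members was 0.13 in Gata2 KD, where that of all tested probes was -0.09, and -0.49 in Pu.1 KD, where that of all tested probes was -0.04.

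Enzymes that share a substrate were also compared within each array, as the difference of their log2 values, which shows unequal change and cancels the array's scaling. Alox5 minus Alox15 was lower in Gata2 KD than in EV by -2.31 (from -2.47 to -2.04 within the slides) and Ltc4s minus Lta4h was higher by 0.93 (from 0.18 to 1.36). Ptgs1 minus Ptgs2 was higher by 0.66 in Gata2 KD, with 0.17 to 1.14 within the slides. In these 3 pairs the Gata2 KD arrays did not overlap EV, and the two-sided exact permutation p was 0.1, the smallest that 3 arrays against 3 can give, or 0.267 adjusted over the 8 tests run.

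In Pu.1 KD none of the 4 pairs separated from EV. The differences were -0.21 for Alox5 minus Alox15, -0.11 for Ltc4s minus Lta4h, 0.82 for Ptgs1 minus Ptgs2 and -0.75 for Hpgds minus Tbxas1, with exact permutation p from 0.2 to 0.6. Hpgds minus Tbxas1 in Gata2 KD gave 0.14 (exact permutation p = 0.8). The pairs with Hpgds carry the noise of a dim probe, with an SD of 1.40 in EV.

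**Figure D3:**
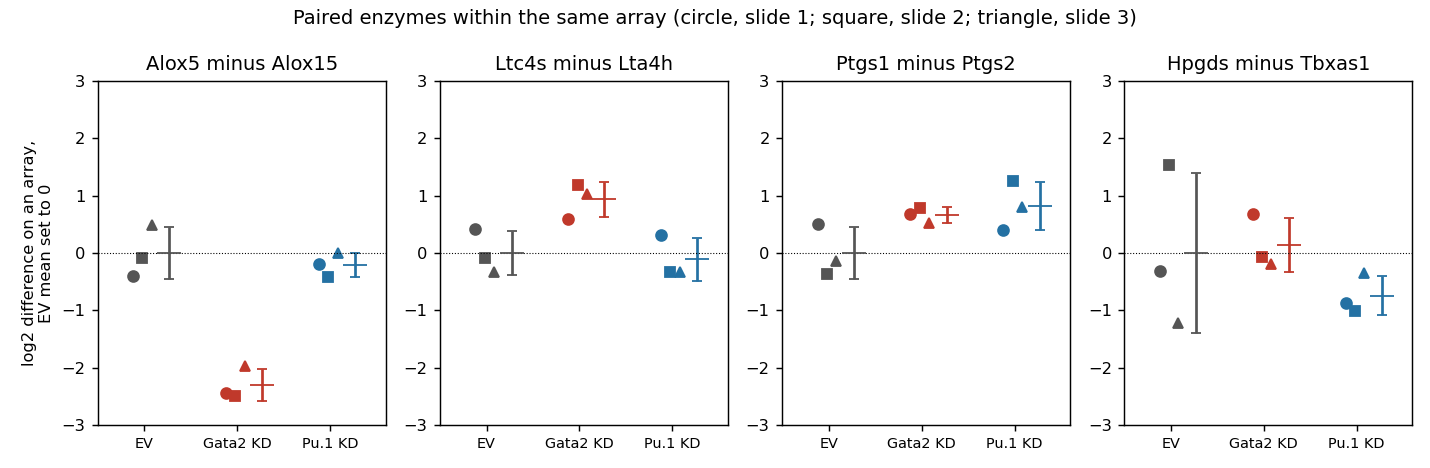
Log2 difference of paired enzymes within the same array, with the EV mean set to 0, for 3 arrays in each group; shapes mark the slide and bars are the mean ± SD. Alox5 minus Alox15 is displaced by -2.31 in Gata2 KD and stays near EV in Pu.1 KD.

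The genes around the 9 enzymes were taken from a list of 49 genes of eicosanoid release, synthesis, processing, inactivation, transport and reception. Of these, 47 had a probe and 45 were tested. In Gata2 KD 5 rose and 2 fell, 7 of 45 beside 5.2% of all probes, with a median difference of -0.06. In Pu.1 KD 2 rose and 2 fell, 4 of 45 beside 2.7%, with a median of 0.07. Between the knockdowns 11 of 45 were called, 7 higher and 4 lower in Gata2 KD, beside 9.63% of all probes.

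The group of glutathione conjugation and cysteinyl leukotriene processing held the 2 largest rises in Gata2 KD among the pathway genes called. Ptger2, a prostaglandin E2 receptor, differed by 2.34 without passing the threshold (adjusted p = 0.134). Its probe was well above background on only 1 EV array, and its difference within the slides ran from 0.09 to 4.21. Mgst2, a microsomal glutathione transferase that can also make leukotriene C4, read 3.53, 3.50 and 3.41 in EV, 5.81, 5.58 and 5.65 in Gata2 KD and 3.68, 3.80 and 3.88 in Pu.1 KD. Every Gata2 KD array was far above both other groups, and the rise was 2.20 (SE 0.13, 4.59-fold, adjusted p = 3.98e-05). Dpep2, a membrane dipeptidase that turns leukotriene D4 into E4, read -2.72, -3.15 and -2.92 in EV, 0.07, -0.08 and -0.06 in Gata2 KD and -2.68, -2.96 and -2.89 in Pu.1 KD. Its rise was 2.91 (SE 0.16, 7.52-fold, adjusted p = 2.76e-05), and 2.23 with normexp background correction.

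Ggt5, a gamma-glutamyl transferase that turns leukotriene C4 into D4, rose by 1.04 in Gata2 KD (SE 0.14, adjusted p = 0.00323), from -2.27 in EV to -1.23. Mgst2, Dpep2 and Ggt5 kept their calls under all 20 alternatives. The other 3 genes of this group did not pass: Mgst3 differed by 0.64 (adjusted p = 0.0658), and Ggt1 and Dpep1 were not called. In Pu.1 KD none of the 6 was called. These 3 genes rose in Gata2 KD together with Ltc4s, while Alox5, which makes the precursor, fell.

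**Figure D4:**
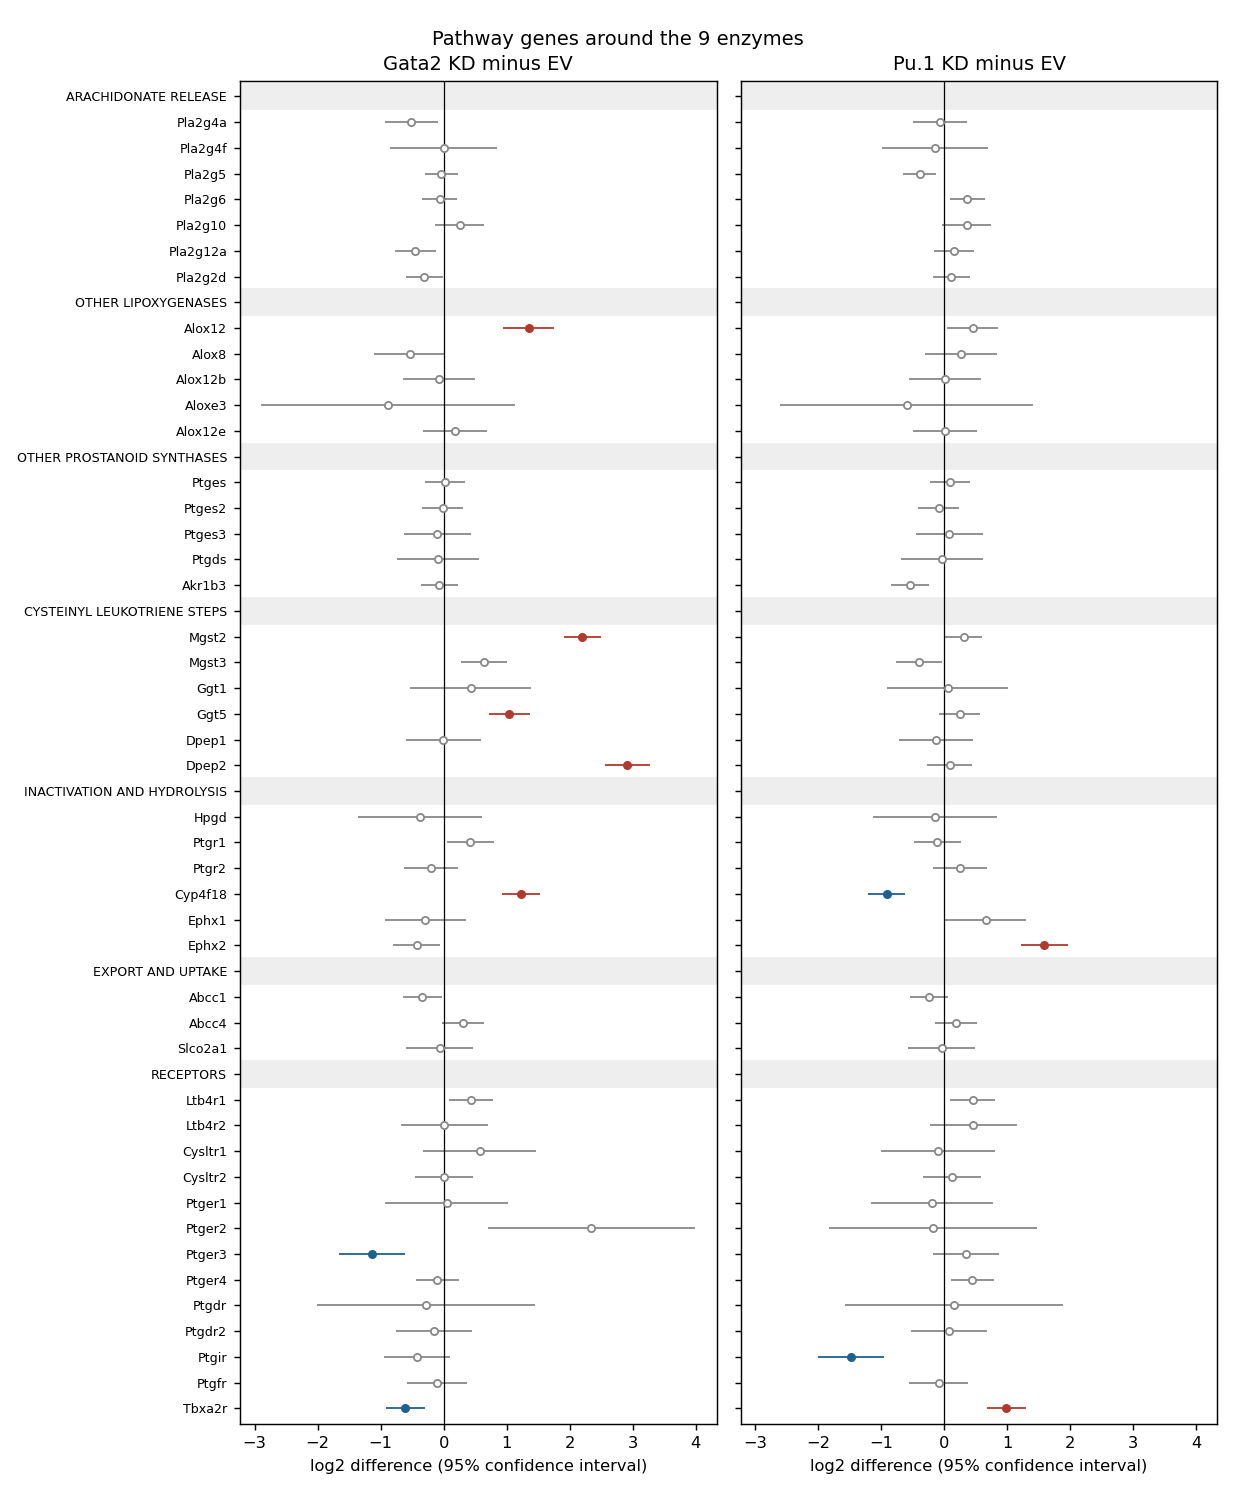
Log2 difference from EV for the 45 tested genes of the surrounding pathway, in Gata2 KD and in Pu.1 KD, with 95% confidence intervals; filled points passed an adjusted p of 0.05. Among the filled points, Dpep2 (2.91) and Mgst2 (2.20) lie farthest to the right in Gata2 KD, and Ptgir (-1.48) farthest to the left in Pu.1 KD.

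Among the other lipoxygenases, Alox12, the platelet-type enzyme, rose by 1.35 in Gata2 KD (SE 0.18, adjusted p = 0.00303), from -3.14, -3.74 and -3.44 in EV to -2.01, -2.22 and -2.04. The rise was 0.68 with normexp background correction and 0.86 with the deposited values, and passed the threshold in both. The other 4 were not called. None of the 7 tested phospholipases that release arachidonic acid was called against EV, and Pla2g4a, the cytosolic phospholipase A2 that supplies 5-lipoxygenase, gave -0.51 in Gata2 KD (adjusted p = 0.227) and -0.07 in Pu.1 KD. None of 5 tested further prostanoid synthases and none of 3 transporters was called.

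Of 6 genes of inactivation and hydrolysis, 1 rose in Gata2 KD and 1 rose and 1 fell in Pu.1 KD. Hpgd, Ptgr1, Ptgr2 and Ephx1 were not called against EV. Cyp4f18, which inactivates leukotriene B4, read 0.21, 0.11 and 0.36 in EV, 1.39, 1.55 and 1.44 in Gata2 KD and -0.72, -0.73 and -0.61 in Pu.1 KD. The 3 groups did not overlap, with a rise of 1.23 in Gata2 KD (SE 0.13, adjusted p = 0.00085) and a fall of 0.91 in Pu.1 KD (-0.91, adjusted p = 0.0103), the same order of groups as Alox5ap. The Pu.1 KD call of Cyp4f18 was lost without Pu.1 KD replicate 1 or 2 (adjusted p up to 0.0592) and with the replicate block (0.0663). It was also lost when only the 2 groups compared were fitted (0.0686). Ephx2, a soluble epoxide hydrolase, rose by 1.59 in Pu.1 KD (SE 0.16, adjusted p = 0.00307) and gave -0.43 in Gata2 KD (adjusted p = 0.259).

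Of 13 receptors, Tbxa2r, the thromboxane receptor, was called in both knockdowns, lower by 0.61 in Gata2 KD (-0.61, adjusted p = 0.0378) and higher by 0.98 in Pu.1 KD (adjusted p = 0.00929), while its ligand's synthase Tbxas1 did not pass in either. The first of these calls was lost on leaving out any 1 array (adjusted p up to 0.149), with the replicate block (0.15) and with median scaling (0.27). The second missed the threshold with the replicate block (adjusted p = 0.0639) and when Pu.1 KD replicate 1 was left out (0.0541). It also missed it when only the 2 groups compared were fitted (0.061). Ptger3, a prostaglandin E2 receptor, was lower by 1.14 in Gata2 KD (-1.14, adjusted p = 0.0247), a call lost on leaving out any of 5 arrays (EV replicates 2 and 3, Gata2 KD replicates 2 and 3 and Pu.1 KD replicate 1; adjusted p up to 0.114), with the replicate block (0.0785) and with median scaling (0.133). Ptgir, the prostacyclin receptor, was lower by 1.48 in Pu.1 KD (-1.48, adjusted p = 0.0143), a call lost without EV replicate 2 or any 1 Pu.1 KD array (adjusted p up to 0.0672), with the replicate block (0.0663) and with median scaling (0.0614). Fitting only the 2 groups compared also lost the calls of Ptger3 (adjusted p = 0.0904) and Ptgir (0.0546) and the Gata2 KD call of Tbxa2r (0.129). That Tbxa2r call was lost without the filter on dim probes as well (0.0518). The leukotriene receptors Ltb4r1, Ltb4r2, Cysltr1 and Cysltr2 were not called against EV.

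Genes with the pattern most like that of a member were sought for the 3 members with the widest range of group means, over 1 probe of each of 15808 genes, by the root mean square difference of centred log2 values over the 9 arrays. Nearest to Alox5 were Cd200r3, a receptor of basophils and mast cells (0.156), P2rx7, an ATP-gated channel (0.162), and Khdc1a (0.191). Their differences in Gata2 KD were -2.01, -2.38 and -2.05. Among those nearest to Ltc4s were Osgin1 (0.0891) and Snx20 (0.132), which were 1.35 and 1.11 higher in Gata2 KD. Nearest to Alox5ap were Ctnnbip1 (0.103), Fkbp1b (0.103) and Ebi3 (0.114), each positive in Gata2 KD (0.86, 0.74 and 0.79) and negative in Pu.1 KD (-0.62, -0.64 and -0.60). All these genes were chosen for their likeness on the same arrays, so differences like those of the member follow from the choice.

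Markers of blood cell lineages were also examined, and many differed between the groups. Some were bright in EV already, as Mpo and Ctsg (mean log2 level 5.92 and 7.03). How mature the cells were was not tested. Of all tested probes, 2.96% were called higher and 2.24% lower in Gata2 KD, and 1.27% and 1.42% in Pu.1 KD. The counts of called markers in every list below stand beside these shares. Of 9 mast cell and basophil markers measured, 6 fell in Gata2 KD, where Alox5 fell, and in Pu.1 KD 1 rose and 3 fell. The summed level of this list, on the linear scale relative to the array's 75th percentile, was 113 to 130 in EV, 23.4 to 25.1 in Gata2 KD and 72.7 to 80.7 in Pu.1 KD. Sums of this kind are set mostly by the brightest probes of a list, here Fcer1a and Cpa3 (mean log2 level 6.05 and 4.90 in EV). Of the 9 markers, 5 had the order of group means that Alox5 had, with EV highest and Gata2 KD lowest. Cma1, a mast cell chymase, was higher in Pu.1 KD than in EV by 1.49 (adjusted p = 0.0201), and Mcpt4, Tpsb2 and Hdc also had another order. All 10 neutrophil markers rose in Gata2 KD and 8 fell in Pu.1 KD, with summed levels of 241 to 270, 1131 to 1348 and 106 to 125 in EV, Gata2 KD and Pu.1 KD. Of 8 monocyte and macrophage markers 7 rose in Gata2 KD and 1 fell in Pu.1 KD, with summed levels of 4.17 to 4.54, 39.1 to 44.8 and 2.68 to 3.02. Of 7 eosinophil markers 2 rose in Gata2 KD and 4 fell in Pu.1 KD, with summed levels of 3.67 to 5.04, 11.1 to 14.5 and 1.40 to 1.59.

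The order of group means that Alox5ap and Cyp4f18 had, with Gata2 KD highest and Pu.1 KD lowest, was shared by 10 of 10 neutrophil, 6 of 8 monocyte and macrophage and 6 of 7 eosinophil markers. Csf1r, Ctss and Ccr3 were the exceptions, with Pu.1 KD above EV by 0.25, 0.09 and 0.75, none of which passed the threshold. In some markers with the order the EV and Pu.1 KD means lay close, as in Clec4n (-2.26 and -2.31). The share of all tested probes with this order, or with that of Alox5, was not counted. The markers were added after their values were seen. Spi1 also had the order of Alox5ap, with differences from EV of 1.39 in Gata2 KD (adjusted p = 0.0012) and -1.73 in Pu.1 KD. Its low level in Pu.1 KD was set by the design, since Spi1 is the gene targeted there. Of 7 megakaryocyte markers 2 rose in Gata2 KD and 3 in Pu.1 KD, with summed levels of 59.4 to 77.4 in EV, 63.6 to 94.7 in Gata2 KD and 149 to 174 in Pu.1 KD. Of 7 erythroid markers 2 fell in Gata2 KD and 2 rose in Pu.1 KD, with summed levels of 217 to 307, 127 to 193 and 239 to 283. Mrc1, of the monocyte and macrophage list, was not well above background on any EV or Pu.1 KD array, and every other marker was well above it on at least 1 array of each group. The part of these cell types, and of Spi1, in the changes of the enzymes was not tested, and in RNA from a whole sorted culture fewer cells of a type and less RNA in each cell cannot be told apart.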

How the data were processed

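Total RNA (150 ng per sample) was labelled with Cy3 and hybridised to 9 single-color Agilent mouse arrays. The authors deposited scanner files (Agilent Feature Extraction 10.1.1.1) whose processed, median and background intensity per spot is not normalised between arrays. They also deposited log2 values, used here as an alternative, which correlated with log2 median signal at 0.997 or more. The array design follows mm8. Groups and replicate numbers came from sample titles.

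Processed intensities were log2-transformed without outlier-flagged spots, averaged per probe and centred on the array's 75th percentile. Dim probes depend most on background subtraction, and 9 arrays limit the precision. A probe was tested when well above background on at least 3 of 9 arrays and with 2 values in each group (36585 of 41174). Accessions were named through RefSeq genes of GRCm38.p6 (23374 probes).

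R 4.3.3 with limma 3.58.1 fitted 1 mean per group to all 9 arrays. Contrasts were moderated with eBayes, two-sided, and adjusted by Benjamini-Hochberg over tested probes. The procedure was tested on simulated arrays with independent noise and planted changes larger than those of Alox5ap. This covers neither changes as small as those nor noise shared by the arrays of a slide. Alternatives changed the block (replicate number, slide), the background (normexp, offset 50), the scaling (quantile, median), the filter (none, all 9 arrays, flagged spots kept), eBayes (trend and robust), the values (deposited log2), the groups fitted (only those compared) or left out 1 array. Members and lists were chosen with earlier results of these data known. The genes named are all members, Gata2, Spi1, pathway genes called against EV, and the 3 nearest genes of the 3 members with the widest range, of which 1 is not reported here. Pla2g4a, Mgst3 and other uncalled pathway genes were added after their values were seen, as were the cell type markers.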

Additional observations from a re-analysis of the deposited data

How the results depend on the processing

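All 20 alternatives kept the signs of the called changes of Alox5, Alox5ap and Ltc4s. Members called stayed at 2 or 3 in Gata2 KD and at 3 or 4 between the knockdowns and in the F test. Of 537 recomputed changes of single members, 481 kept direction and side of the threshold. In Pu.1 KD the 2 members called became 0 with the replicate block, median scaling, only the compared groups, or any 1 array left out (0 to 0), and 1 without the filter. The cause was not tested.

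The deviations showed no pairing of samples by replicate number. Between groups, they correlated at -0.55 to 0.65 for same-numbered arrays and at -0.63 to 0.72 for the others. For arrays on the same slide the range was -0.04 to 0.72, and on different slides -0.63 to 0.35. The main fit has no slide term. The replicate block gave 1172 and 234 called probes in Gata2 KD and Pu.1 KD (1902 and 986 without it) and 1 pathway gene in Pu.1 KD (4 without it). The slide block gave 2886 and 1875 probes and 19 pathway genes between the knockdowns (11 without it). Median scaling gave 1203 probes (69.7% of them higher, against 57.0%), 377 and, between the knockdowns, 2259 (against 3524). The deposited values gave 13, 7 and 19 pathway genes and 1785 probes in Pu.1 KD, and trend and robust settings 1575 there. Only the compared groups gave 1114 and 223 probes and 1 pathway gene in Pu.1 KD. Leaving out 1 array gave 1070 to 1704, 278 to 825 and 2207 to 3945 probes, and 5 to 6, 1 to 4 and 8 to 13 pathway genes. In Pu.1 KD, 1 pathway gene was left without Pu.1 KD replicate 1 and 2 without Pu.1 KD replicate 2.

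Uncalled changes near 0 changed sign under some settings, none passing the threshold. In Gata2 KD, Ptgs1 became 0.0215 with median scaling and 0.0153 with the deposited values, and Tbxas1 0.0502 with quantile normalization, 0.0330 with median scaling and 0.005 with the deposited values. Lta4h became 0.011 in Pu.1 KD with the deposited values. Leaving out 1 array, the Gata2 KD changes ranged from -0.0513 to 0.306 for Alox15, -0.105 to 0.107 for Ptgs1, -0.437 to 1.02 for Hpgds and -0.180 to 0.112 for Tbxas1. The Pu.1 KD changes ranged from -1.23 to 0.225 for Hpgds (above 0 without EV replicate 3), -0.163 to 0.118 for Lta4h and -0.0856 to 0.207 for Tbxas1. The paired differences in Gata2 KD ranged from -2.51 to -2.06 (Alox5 minus Alox15), 0.768 to 1.14 (Ltc4s minus Lta4h), 0.481 to 0.913 (Ptgs1 minus Ptgs2) and -0.469 to 0.904 (Hpgds minus Tbxas1). In Pu.1 KD they ranged from -0.412 to 0.0399, -0.330 to 0.0922, 0.602 to 1.07 and -1.35 to 0.0181. Hpgds was not tested under the filter on all 9 arrays.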
